A study of Mus musculus with 12 samples.

Results

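Aminoacyl-tRNA synthetases, the enzymes that load each transfer RNA (tRNA) with its amino acid, were followed in germ cells and somatic cells of the fetal mouse gonad. The set holds 36 genes chosen by name. The 16 whose symbols end in 2 were counted as mitochondrial and the other 20 as cytosolic. Genes that serve both compartments were not separated. All 36 were present in both deposited expression tables, among 12845 genes. Gene symbols are given as in those tables (Aars, now Aars1, for example), and Lars and Lars2, or Hars and Hars2, are separate genes.

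Synthetases join an amino acid to the matching tRNA at the cost of ATP, and the charged tRNA then delivers it to the ribosome. The nucleus encodes the enzymes of the cytosol as well as those imported into mitochondria, where a separate ribosome translates the few proteins of the mitochondrial genome. In the cytosol several synthetases are held in the multisynthetase complex by scaffold proteins, and the enzymes fall by the fold of their catalytic site into class I and class II. Genes for many cytosolic synthetases are known targets of ATF4, a transcription factor of the response to amino acid shortage.

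RNA was taken from gonads of embryos at E13.5, counted in days of gestation, a stage at which female germ cells begin meiosis and male germ cells stop dividing. All 12 samples had the strain label Oct4GFPxICR, that is, they came from dams mated to males with an Oct4-driven green fluorescent protein (GFP) reporter, which marks germ cells. Flow sorting gave 4 groups of 3 libraries: female primordial germ cells (PGCs, GFP-positive), male PGCs, female soma and male soma, the soma being all GFP-negative gonad cells. The labels do not say which embryos or litters were pooled in a library or whether replicates were independent, so p-values measure the spread between these libraries.

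Depth ran from 6454322 to 24791414 reads per library. Germ cell markers separated the sorted groups: 5 germ cell genes summed to 3185 to 3383 CPM (counts per 1e+06 reads) in female PGCs and 4077 to 4239 CPM in male PGCs, against 68.8 to 219 CPM in female soma and 68.5 to 88.6 CPM in male soma. Most of the male soma sum was Kit (57.6, 76.4 and 79.3 CPM). Female soma had 40.5, 98.2 and 5.21 CPM of Dazl. Gonadal soma markers (7 measured) summed to 5.83 to 34.2 CPM in female PGCs and 51.0 to 102 CPM in male PGCs. In female soma they summed to 588 to 740 CPM, and in male soma to 1498 to 1635 CPM. Amh alone had 67.6, 30.6 and 27.7 CPM in male PGCs. The soma also carried other cell types. Summed erythroid markers (3 measured) had 2.69 to 9.71 CPM over the PGC libraries, against 17054 to 28791 CPM in female soma and 3065 to 8230 CPM in male soma. Macrophage markers (5 measured) summed to 1.23 to 10.5 CPM in PGCs, against 245 to 375 CPM in female soma and 115 to 159 CPM in male soma. C1qa was under 1 CPM in each PGC library, while Csf1r and Cx3cr1 each reached 2.94 CPM in a female PGC library. Endothelial markers (4 measured) summed to 1.75 to 5.74 CPM in PGCs, against 97.1 to 130 CPM in female soma and 77.8 to 127 CPM in male soma. Tek was under 1 CPM in each PGC library, while Cdh5 reached 4.25 CPM in a male PGC library. The part of these other cell types in the soma values below was not tested, nor was that of soma cells in the PGC values. Members averaged 162 (Mars2) to 11450 (Lars2) reads per library, with a median of 1417 against 556 for all genes.

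Per kilobase of transcript, cytosolic enzymes were the more abundant group. Averaged over the 12 libraries, the cytosolic members had a median of 55.5 reads per kilobase of transcript in each library's CPM, from 20.8 for Cars (cysteine) to 91.8 for Dars (aspartate). The mitochondrial members had a median of 17.0, from 0.843 for Mars2 (methionine) to 218 for Lars2 (leucine). Without Lars2 the highest mitochondrial member was Tars2 (threonine) at 39.0. Mars2, Wars2 (tryptophan) and Pars2 (proline) were the lowest members in the PGC groups and in male soma. The annotated Mars2 transcript of 11294 bases, the longest used here, lowers its value per kilobase. Mars2 was also the member with the fewest reads, 162 per library on average. For the 13 amino acids with 1 cytosolic and 1 mitochondrial member each, the cytosolic level was the higher in 10, with a median ratio of 2.54. The exceptions were leucine (ratio 0.255), threonine (0.562) and tyrosine (0.938). The leucine ratio rests on Lars2, whose reads moved with those of the ribosomal RNA precursor among replicates (below). The part of ribosomal RNA reads in it was not tested.

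**Figure D1:**
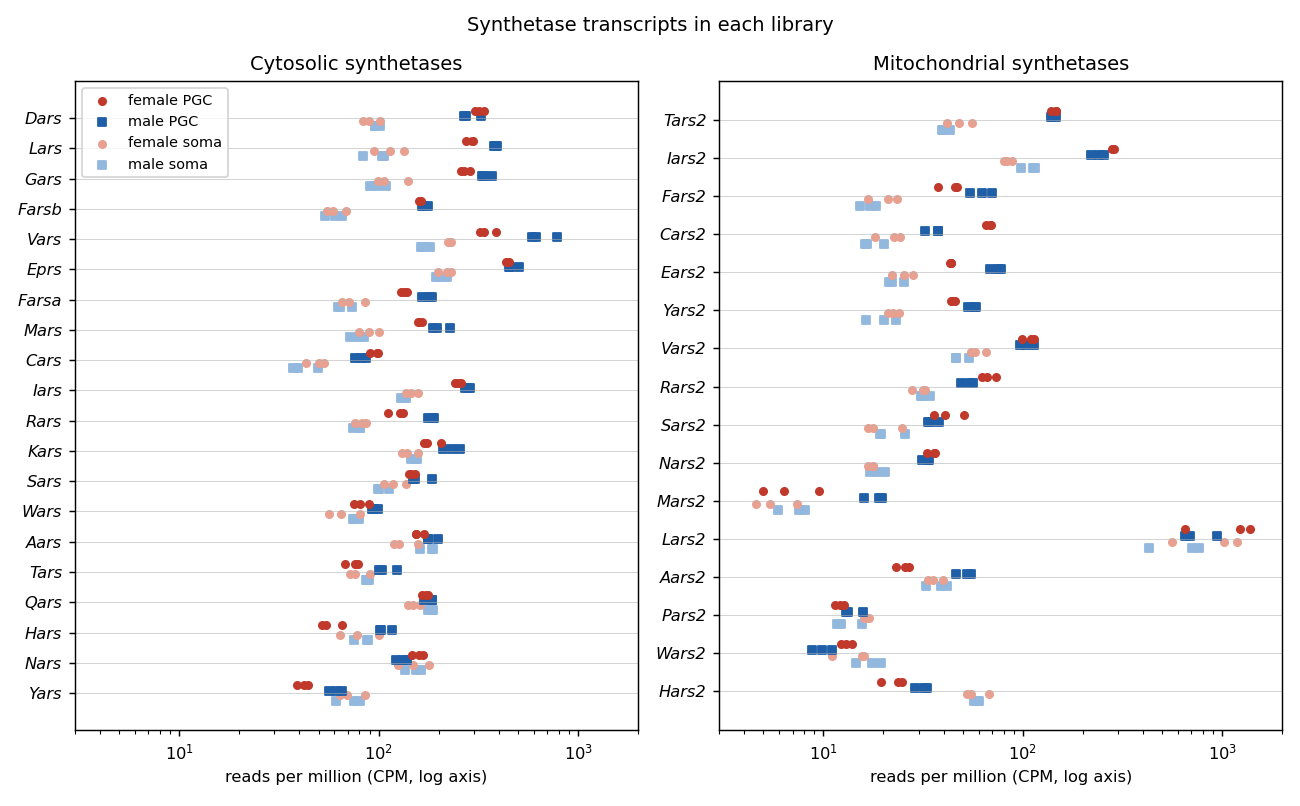
CPM (log axis) of each synthetase in the 12 libraries, cytosolic members left and mitochondrial members right, with 1 point per library and genes ordered by their change between PGCs and soma. For most genes the PGC points lie to the right of the soma points, whereas Hars2 lies to the left in both sexes and Lars2 spreads over 430 to 1383 CPM.

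As a share of all reads, most synthetase messages were higher in PGCs than in soma. Averaged over the sexes, 27 of 36 members rose and 3 fell at an adjusted p under 0.05 (limma on the deposited read depth log2 values, Benjamini-Hochberg adjustment over 12845 genes), while 41.4% of all genes rose and 45.3% fell. The median log2 fold change was 0.75 over the members and -0.04 over all genes. Of the cytosolic enzymes 16 of 20 rose and 1 fell (median 0.77), and of the mitochondrial enzymes 11 of 16 rose and 2 fell (median 0.71). These medians, averaged over the sexes, lay close together, but the order of the sets differed by sex. In females the cytosolic median was 0.48 and the mitochondrial 0.69, and in males they were 0.88 and 0.74. These log2 values move by about 0.79 per log2 unit of CPM across the members, and folds on that scale are therefore smaller than folds of CPM. In bulk samples, fewer cells with a message and less of it per cell cannot be told apart.

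Dars, the aspartyl enzyme (chromosome 1, 128363707 to 128417368, minus strand; GENCODE vM21, GRCm38), had the largest rise of a cytosolic member. It had 317, 304 and 336 CPM in female PGCs and 268, 327 and 275.2 CPM in male PGCs, against 83.7, 102 and 89.1 CPM in female soma and 96.4, 102 and 95.6 CPM in male soma. Every PGC library was above every soma library, and the mean log2 fold change was 1.38 (SE 0.05, limma adjusted p = 7.08e-12). Lars, the leucyl enzyme of the cytosol, had 297.6, 294 and 274 CPM in female PGCs and 389, 378 and 391 CPM in male PGCs, against 94.8, 134 and 114 CPM in female soma and 106, 83.5 and 104 CPM in male soma. Its log2 fold change was 1.37 (SE 0.06), again with no overlap, and male PGCs stood above female PGCs. Gars, the glycyl enzyme, had 258, 269 and 286 CPM in female PGCs and 369.6, 339 and 328 CPM in male PGCs. Its soma libraries had 99.3, 140.1 and 107 CPM in females and 109, 90.4 and 98.6 CPM in males. PGCs were higher without overlap, by a log2 fold change of 1.25 (SE 0.06).

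Among the mitochondrial enzymes, Tars2 (threonine; chromosome 3, 95739976 to 95760206, minus strand) rose most. It had 146, 147 and 138 CPM in female PGCs and 146, 140.3 and 138 CPM in male PGCs, against 47.9, 55.4 and 41.7 CPM in female soma and 39.9, 39.1 and 43.3 CPM in male soma. The PGC groups were alike, both stood clear of the soma, and the log2 fold change was 1.35 (SE 0.05, limma adjusted p = 9.50e-12). Iars2 (isoleucine) had 280.3, 287 and 283 CPM in female PGCs and 255, 218 and 239.6 CPM in male PGCs, against 87.8, 83.2 and 80.7 CPM in female soma and 112, 97.5 and 114 CPM in male soma. It was higher in PGCs without overlap (log2 fold change 1.19, SE 0.05). Fars2 (phenylalanine) had 45.4, 46.5 and 37.5 CPM in female PGCs and 70.2, 54.1 and 62.4 CPM in male PGCs, against 21.1, 23.3 and 16.7 CPM in female soma and 17.0, 18.3 and 15.3 CPM in male soma (log2 fold change 1.118, SE 0.08). Here too the PGCs were clear of the soma, with male PGCs highest.

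A minority of synthetases did not share the rise. Hars2, the mitochondrial histidyl enzyme, fell most, with 19.3, 23.7 and 24.8 CPM in female PGCs and 32.0, 28.7 and 33.0 CPM in male PGCs, against 67.6, 52.6 and 55.1 CPM in female soma and 58.9, 56.6 and 60.3 CPM in male soma. All PGC libraries were below all soma libraries (log2 fold change -0.79, SE 0.07, limma adjusted p = 4.15e-08). Hars, the cytosolic histidyl gene, starts on the opposite strand and overlaps Hars2 by 198 annotated bases. It had 54.3, 51.8 and 65.2 CPM in female PGCs and 117, 102 and 103 CPM in male PGCs, against 63.8, 101 and 77.9 CPM in female soma and 88.6, 75.0 and 87.3 CPM in male soma. Its mean log2 fold change was 0.00 (SE 0.08, limma adjusted p = 0.978), made of -0.37 in females and 0.37 in males, both past the threshold (limma adjusted p = 0.00697 and 0.00624).

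Yars, the tyrosyl enzyme, was the cytosolic member that fell. It had 38.9, 44.2 and 42.3 CPM in female PGCs and 65.5, 61.5 and 56.2 CPM in male PGCs, against 63.8, 85.0 and 69.2 CPM in female soma and 80.7, 60.9 and 75.0 CPM in male soma. Female PGCs were below female soma without overlap, whereas the male groups overlapped. The log2 fold change was -0.34 (SE 0.07, limma adjusted p = 0.000338), and -0.12 (adjusted p = 0.117) once each library was centred on its median gene. Wars2 (tryptophan) had 13.0, 12.2 and 13.96 CPM in female PGCs and 10.99, 9.89 and 8.81 CPM in male PGCs, against 15.7, 11.1 and 15.9 CPM in female soma and 19.6, 14.5 and 17.6 CPM in male soma. The male groups did not overlap and the female groups did; the log2 fold change of -0.24 (SE 0.09, limma adjusted p = 0.0186) became -0.02 (adjusted p = 0.875) with median centring. Median centring adds 0.22 to each of these log2 fold changes, since the median value of a library was lower in PGCs by that amount.

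Nars (asparagine) and Pars2 (proline) were not called. Nars had 167, 159 and 148 CPM in female PGCs and 122, 138 and 132 CPM in male PGCs, against 126, 178 and 149 CPM in female soma and 154, 136 and 164 CPM in male soma, with a log2 fold change of -0.00 (SE 0.06) that became 0.22 (limma adjusted p = 0.00391) with median centring. Pars2 had 12.1, 11.5 and 12.6 CPM in female PGCs and 13.0, 13.2 and 15.8 CPM in male PGCs, against 15.9, 16.9 and 16.3 CPM in female soma and 11.7, 12.3 and 15.6 CPM in male soma. Female PGCs were below female soma (log2 fold change -0.27, limma adjusted p = 0.0261, and 0.0661 without female PGC replicate 2), and the male groups overlapped (0.13, adjusted p = 0.255).

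**Figure D2:**
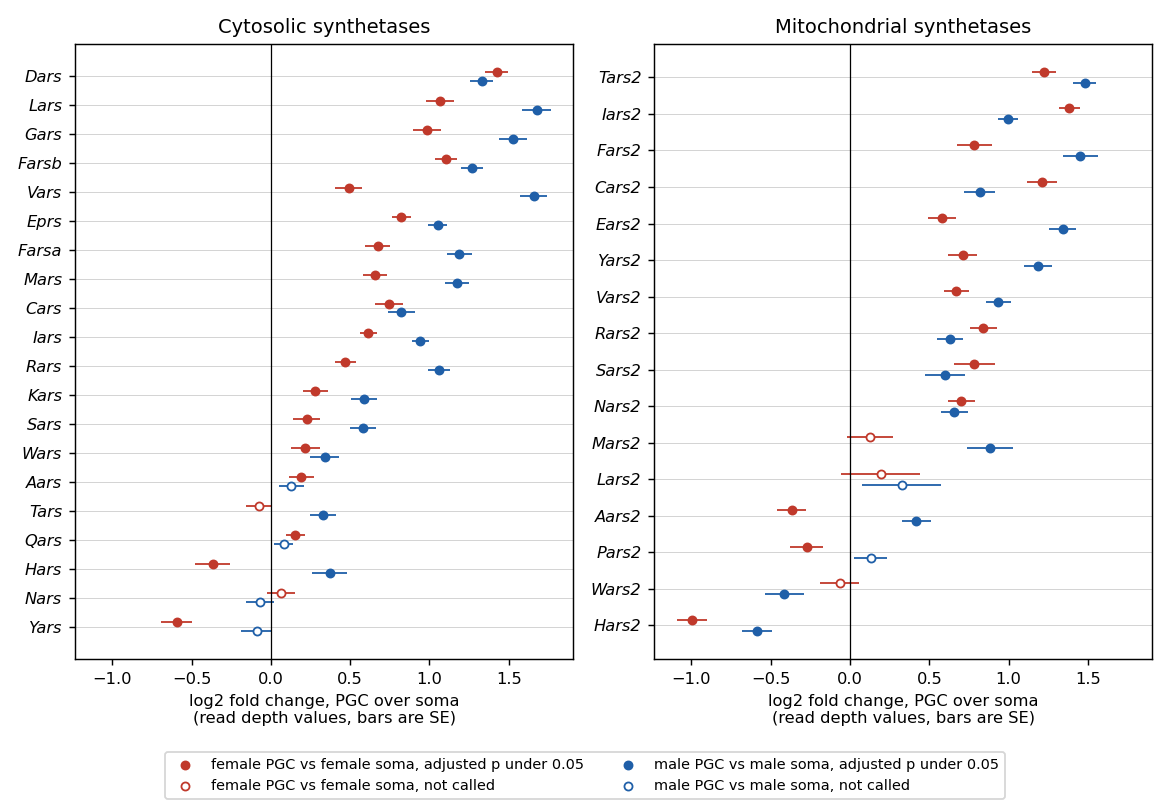
Log2 fold change of PGC over soma for each synthetase on the read depth scale, in females (red) and males (blue), with bars for the standard error of the fit and filled points for adjusted p under 0.05. Most points lie right of 0 in both sexes, from Dars and Tars2 at the top, and Hars2 lies left of 0 in both.

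All 8 synthetases of the multisynthetase complex rose averaged over the sexes (Dars, Eprs, Iars, Kars, Lars, Mars, Qars and Rars), with a median log2 fold change of 0.85 and a range of 0.12 (Qars, glutamine) to 1.38 (Dars). With voom on the recovered reads 7 of the 8 passed, Qars being the exception. Of the 12 cytosolic enzymes outside the complex 8 rose and 1 fell, with a median of 0.34. Of all genes 41.4% rose and 45.3% fell, and with voom 39.5% rose. The difference between the complex and the other cytosolic enzymes was not tested. Eprs, which charges tRNAs with glutamate and with proline, had 439, 435 and 451 CPM in female PGCs and 451, 507 and 457 CPM in male PGCs, against 198, 230.4 and 220.1 CPM in female soma and 193, 203 and 219.9 CPM in male soma. The PGC libraries again stood clear of all soma libraries.

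The 3 scaffold proteins of the complex followed. Aimp1 rose by a log2 fold change of 0.79, Aimp2 by 0.68 and Eef1e1 (also called AIMP3) by 1.03. Eef1e1 had 38.2, 31.0 and 51.3 CPM in female PGCs and 96.3, 88.0 and 84.4 CPM in male PGCs, against 16.2, 28.1 and 23.7 CPM in female soma and 27.9, 25.3 and 22.5 CPM in male soma. Male PGCs were the highest group and female PGCs the next, without overlap between any PGC and soma library. By catalytic class, 8 of 9 class I cytosolic enzymes rose and 1 fell (median 0.78), and 7 of 10 class II enzymes rose with 0 falls (median 0.42). Eprs, which holds a domain of each class, was counted in neither. Over all genes 41.4% rose and 45.3% fell.

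Promoter sequence was examined because ATF4 binds an amino acid response element and because several members moved together. RefSeq windows of 300 bases (250 before to 50 after the start, GRCm38.p6) were used for 27 members, 13 cytosolic and 14 mitochondrial. Cars, Hars, Lars, Nars, Rars, Vars, Wars, Hars2 and Pars2 were left out of the search. The motif counts therefore say nothing about Lars, among the largest risers, or Hars2, which fell most. The letters TGATGNAAN, searched on both strands, occurred in 5 of 13 cytosolic and 0 of 14 mitochondrial windows, against 3.95% of 32851 windows of all genes. The letters GCGCATGCG, of the factor NRF1 that is known for nuclear genes of mitochondrial function, occurred in 0 cytosolic and 2 mitochondrial windows (1.75% of all windows). CACGTG occurred in 4 cytosolic windows and 1 mitochondrial window (7.15% of all), and CCAAT in 7 and 6 (37.4% of all). The searched motifs did not overlap one another at the matches shown here. The stretches that hold the first 2 motifs follow, 5′ to 3′ on the gene's strand, with each match in capitals. Vars2 held 2 matches, both within the stretch given. They are shown because genes with the same letters differed in their change between PGCs and soma.

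Gars (chr6:55037944-55038004, plus strand): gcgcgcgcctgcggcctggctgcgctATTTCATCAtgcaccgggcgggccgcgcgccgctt
Iars (chr13:49682110-49682154, plus strand): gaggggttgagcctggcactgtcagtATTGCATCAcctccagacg
Aars, upstream match (chr8:111033703-111033763, plus strand): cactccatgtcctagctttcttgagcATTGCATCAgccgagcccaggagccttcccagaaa
Aars, match after the start (chr8:111033824-111033866, plus strand): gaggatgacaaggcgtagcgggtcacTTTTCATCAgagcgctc
Tars (chr15:11399640-11399700, minus strand): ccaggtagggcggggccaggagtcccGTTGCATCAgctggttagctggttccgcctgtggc
Yars (chr4:129189880-129189927, plus strand): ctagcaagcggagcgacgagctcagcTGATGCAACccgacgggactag
Wars2 (chr3:99141000-99141060, plus strand): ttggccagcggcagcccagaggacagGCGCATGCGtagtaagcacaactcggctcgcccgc
Vars2 (chr17:35667605-35667665, minus strand): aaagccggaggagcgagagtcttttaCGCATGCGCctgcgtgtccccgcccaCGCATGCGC

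The mean log2 fold change in PGCs was 1.25 for Gars, 0.78 for Iars (isoleucine) and 0.16 for Aars (alanine), all past the threshold. It was 0.13 for Tars (threonine; limma adjusted p = 0.0513) and -0.34 for Yars. In the mitochondrial pair, Vars2 (valine) rose by 0.80 and Wars2 fell by 0.24. In female against male PGCs, all 5 cytosolic genes with the first motif were lower, by -0.40, -0.25, -0.28, -0.54 and -0.52 for Gars, Iars, Aars, Tars and Yars. This was close to the cytosolic set as a whole, of which 17 of 20 were lower (32.5% of all genes). A match of letters is a description and was not tested as a binding site.

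Per cell, the synthetases were higher in PGCs without exception at this threshold. The second deposited table is scaled to cell number through spike-in RNA, as its name was read, and there all 36 members rose in PGCs averaged over the sexes, in females and in males. Of all genes 74.3% rose averaged over the sexes, 77.2% in females and 64% in males, so a rise on this scale was common. The members' median log2 fold change was 2.95, against 1.89 over all genes. After median centring, which removes that general shift, 32 members rose and 1 (Hars2) fell, against 48.3% and 39.3% of all genes. Averaged over the sexes, the cytosolic and mitochondrial sets had the same median per cell, 2.95. In females the cytosolic median was 3.04 and the mitochondrial 3.35, and in males they were 2.64 and 2.55. Hars2 had the smallest rise per cell averaged over the sexes, at 0.89 (SE 0.22, limma adjusted p = 7.32e-05). It was followed by Yars at 1.52 and Wars2 at 1.58, and Tars2 had the largest at 3.71.

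**Figure D3:**
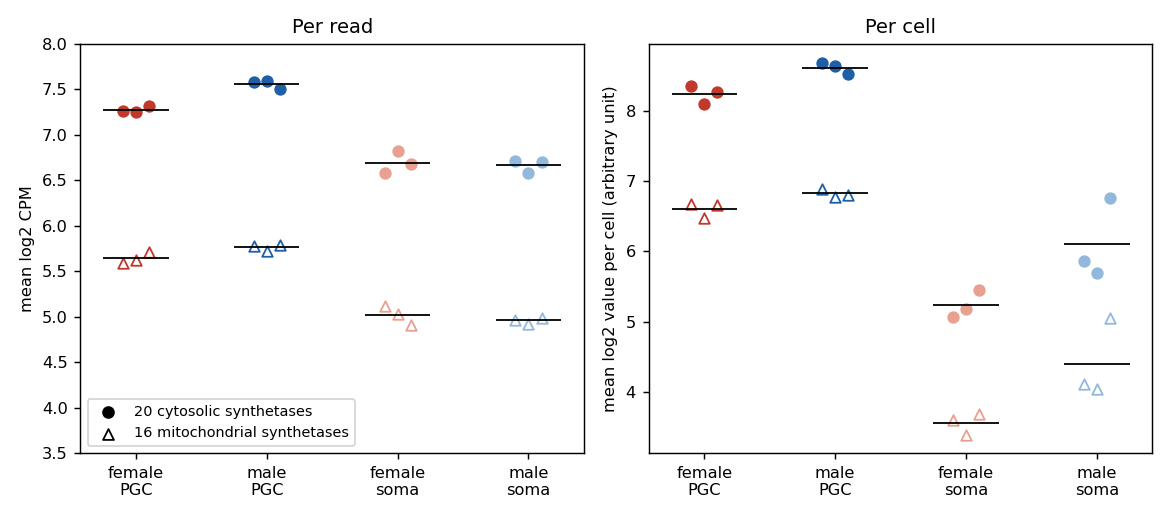
Mean over the 20 cytosolic (filled circles) and 16 mitochondrial (open triangles) synthetases in each library, as log2 CPM (left) and as the deposited log2 value per cell (right), with lines at group means. PGC libraries lie above soma libraries for both sets on both scales, and cytosolic means lie 1.47 to 1.86 log2 units above mitochondrial means.

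The averages of the sets showed the same order. The mean log2 CPM of the cytosolic members was 7.28 ± 0.04 in female PGCs and 7.56 ± 0.04 in male PGCs, against 6.70 ± 0.12 in female soma and 6.67 ± 0.07 in male soma (SD, n = 3 each). That of the mitochondrial members was 5.64 ± 0.06 in female PGCs and 5.77 ± 0.03 in male PGCs, against 5.02 ± 0.10 in female soma and 4.96 ± 0.03 in male soma. On the cell number scale the cytosolic mean was 8.24 ± 0.13 in female PGCs and 8.62 ± 0.08 in male PGCs, against 5.23 ± 0.20 in female soma and 6.10 ± 0.57 in male soma. Male soma replicate 3 stood apart on that scale at 6.76, against 5.86 and 5.70 in the other male soma libraries.

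Within each sex the same direction held for most members. In females 26 of 36 rose in PGCs and 5 fell (38.7% and 42.3% of all genes), with a median log2 fold change of 0.60. In males 28 rose and 2 fell (39.1% and 43.7% of all genes), with a median of 0.82. The 2 that fell in males were Hars2 and Wars2, and the 5 in females were Hars2, Yars, Hars, Aars2 and Pars2. In CPM, 14 of 20 cytosolic members in females and 16 of 20 in males had every PGC library above every soma library. So had 10 of 16 mitochondrial members in females and 12 of 16 in males. Such separation above soma held for 39.1% of all genes in females and 37.6% in males.

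Between the sexes, synthetase messages were mostly lower in female than in male PGCs. On the read depth scale 23 of 36 members were lower and 1 was higher (32.5% and 32.8% of all genes), with a median of -0.27 on the log2 scale over the members and 0.01 over all genes. The cytosolic set made up most of this, with 17 of 20 lower and 0 higher (median -0.34), while 6 of 16 mitochondrial members were lower and 1 was higher (median -0.09). The recovered reads scaled by library totals gave 17 lower and 4 higher (27.2% and 39.1% of all genes; voom, with Nars, Cars2, Iars2 and Rars2 higher), where the median of all genes moved to 0.18. The cytosolic split was then 11 lower and 1 higher, and the mitochondrial split 6 lower and 3 higher.

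Mars2, the mitochondrial methionyl enzyme (chromosome 1, 55237177 to 55248470, plus strand), had the largest difference. It had 6.31, 4.96 and 9.47 CPM in female PGCs, 16.1, 19.0 and 19.7 CPM in male PGCs, 7.34, 5.37 and 4.58 CPM in female soma and 5.90, 8.11 and 7.50 CPM in male soma. Male PGCs stood above the other groups, which overlapped, and the female over male log2 fold change in PGCs was -0.94 (SE 0.15, limma adjusted p = 6.48e-05). Vars, the cytosolic valyl enzyme (chromosome 17, 35000987 to 35016322, plus strand), had 324, 335 and 389.6 CPM in female PGCs, 613, 781 and 590.1 CPM in male PGCs, 223, 228 and 230.1 CPM in female soma and 182, 167 and 162 CPM in male soma. The 4 groups did not overlap, and the difference in PGCs was -0.86 (SE 0.08, limma adjusted p = 9.39e-07).

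Aars2, the mitochondrial alanyl enzyme, had 26.9, 23.2 and 25.6 CPM in female PGCs, 55.1, 52.3 and 46.2 CPM in male PGCs, 39.6, 35.3 and 33.3 CPM in female soma and 38.9, 32.7 and 41.8 CPM in male soma. Its female PGCs were the lowest group and its male PGCs the highest (log2 fold change -0.85, SE 0.09, limma adjusted p = 2.30e-06). Hars was lower in female PGCs by -0.82 (SE 0.11), with its values given above. The exception was Cars2, the mitochondrial cysteinyl enzyme, with 65.6, 68.6 and 69.0 CPM in female PGCs and 37.6, 37.7 and 32.4 CPM in male PGCs (log2 fold change 0.58, SE 0.10, limma adjusted p = 0.000124). Its soma libraries had 24.2, 22.7 and 18.2 CPM in females and 16.6, 16.1 and 20.2 CPM in males, below all PGC libraries.

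**Figure D4:**
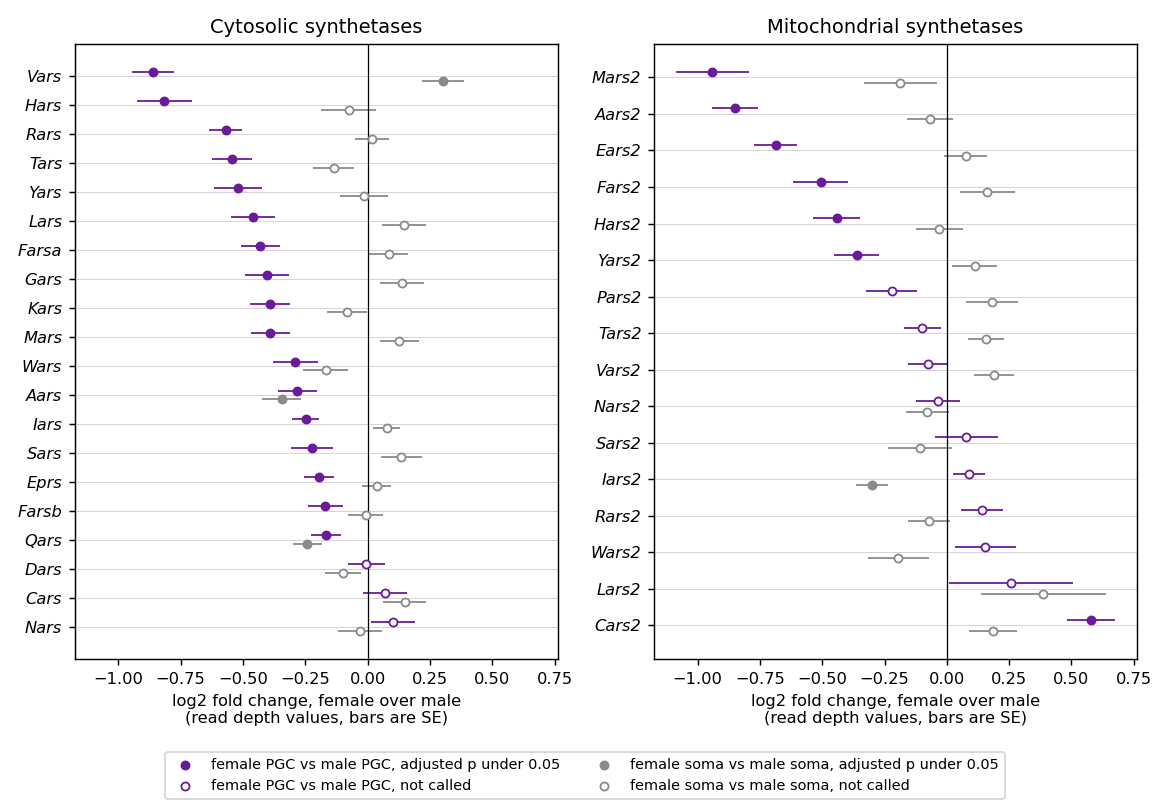
Log2 fold change of female over male for each synthetase on the read depth scale, in PGCs (purple) and in soma (grey), with bars for the standard error of the fit and filled points for adjusted p under 0.05. In PGCs 23 of 36 members lie left of 0 past the threshold (17 with voom on recovered reads), and in soma 3 do.

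Per cell the sex difference in PGCs was called for fewer members. There 6 of 36 were lower in female PGCs (Mars2, Aars2, Hars, Vars, Ears2 and Rars) and 1 was higher (Cars2), against 17.7% and 24.3% of all genes. The count of lower members was 16 without male soma replicate 3 and 4 to 7 without any other single library. Cars2 lost its call when any 1 PGC library was left out. After median centring 24 members were lower and 1 was higher, against 34.7% and 31.4% of all genes.

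In the soma few synthetases differed by sex as a share of reads. On the read depth scale 1 of 36 members was higher in female soma and 3 were lower (13.3% and 11% of all genes), with a median of 0.01. Vars was higher in female soma (log2 fold change 0.30, SE 0.08, limma adjusted p = 0.0180, and 0.0739 without male soma replicate 3). Aars (-0.34), Iars2 (-0.30) and Qars (-0.24) were lower. Aars had 119, 158 and 127 CPM in female soma against 187, 162 and 185 CPM in male soma, without overlap. Its PGC libraries had 168, 154 and 153 CPM in females and 198, 176 and 177 CPM in males. The count of members higher in female soma was 0 without male soma replicate 2 or 3 and 2 without female soma replicate 3.

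Per cell, 31 of 36 members were lower in female than in male soma and 0 were higher (63.6% and 2.86% of all genes), with a median of -0.86 that equalled the median of all genes, -0.86. Leaving out female soma replicate 1 or 2 lowered the count to 18 or 17. After median centring 3 were lower and 1 was higher, against 8.36% and 10.1% of all genes.

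As a share of reads, the rise in PGCs was itself smaller in females for many members, which did not hold per cell (below). The female minus male difference of the PGC over soma log2 fold change passed the threshold as a negative value in 20 of 36 members and as a positive one in 2 (28.9% and 27.9% of all genes). Of the cytosolic members 13 of 20 were negative and 0 positive (median -0.34), and of the mitochondrial members 7 of 16 were negative and 2 positive (median -0.26). With voom on the recovered reads 16 were negative and 3 positive (22.2% and 30% of all genes). Vars had the largest difference, with a log2 fold change of 0.49 in females and 1.66 in males (difference -1.17, SE 0.12, limma adjusted p = 3.11e-06). In CPM, Vars was 1.54-fold higher in female PGCs than in female soma and 3.88-fold higher in male PGCs than in male soma.

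Aars2 fell in females (log2 fold change -0.37) and rose in males (0.42), with a difference of -0.78 (SE 0.13). Ears2, the mitochondrial glutamyl enzyme, rose in both sexes, by 0.58 in females and 1.34 in males. Its libraries had 43.8, 43.1 and 43.8 CPM in female PGCs and 77.6, 75.2 and 68.7 CPM in male PGCs, against 22.1, 25.3 and 28.1 CPM in female soma and 21.3, 22.1 and 25.3 CPM in male soma. The female and male soma libraries overlapped, and the PGC groups did not. Mars2 was not called in females (0.13, limma adjusted p = 0.432) and rose in males (0.88), with a difference of -0.75 (SE 0.21). The positive differences were those of Cars2 (0.39, limma adjusted p = 0.0249, and 0.0687 without male soma replicate 3) and Iars2 (0.39). Per cell the members' median log2 fold change was 3.22 in females and 2.62 in males, against 2.36 and 1.42 over all genes. On that scale 9 members had a positive difference and 0 a negative one (42.8% and 5.16% of all genes). The positive count was 4 without female PGC replicate 1 or female soma replicate 1, 5 without male PGC replicate 3 and 6 to 13 without any other single library, and 1 difference was negative without male soma replicate 3. After median centring 1 was positive and 22 were negative, against 24.8% and 29.6% of all genes.

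Pairs of enzymes for one amino acid often did not change in step, between female and male PGCs or between PGCs and soma. In 10 of the 13 pairs the female over male log2 fold change was lower for the cytosolic than for the mitochondrial enzyme, with a median difference of -0.37. For PGC against soma averaged over the sexes, the cytosolic change was the higher in 7 pairs and the lower in 6, with a median difference of 0.03. In females it was the higher in 5 and the lower in 8 (median difference -0.37), and in males in 7 and 6 (0.01). Averaged over the sexes, single pairs ranged from -1.29 (tyrosine) to 1.11 (leucine). Between female and male PGCs they ranged from -0.79 (valine) to 0.57 (alanine). These pair counts are descriptions without a test.

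Lars2, the mitochondrial leucyl enzyme (chromosome 9, 123366927 to 123462666, plus strand), stood apart by its spread. It had 649.9, 1229 and 1383 CPM in female PGCs, 690.2, 651 and 939 CPM in male PGCs, 1014, 1184 and 558 CPM in female soma and 765, 703 and 430.4 CPM in male soma. The groups overlapped, the highest library was 3.21 times the lowest, and the mean log2 fold change in PGCs was 0.26 (SE 0.18, limma adjusted p = 0.179). The call changed to a rise without female PGC replicate 1 (0.40, adjusted p = 0.0317) and with median centring (0.48, adjusted p = 0.0181).

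Reads of Rn45s, the precursor of ribosomal RNA, moved with those of Lars2 among replicates. Rn45s had 10172, 15764 and 16721 CPM in female PGCs, 9607, 9165 and 11137 CPM in male PGCs, 20923, 24234 and 9218 CPM in female soma and 15442, 16190 and 8072 CPM in male soma. In each group the library with the least Rn45s also had the least Lars2. Lars2 reads came to 4.34% to 8.43% of Rn45s reads over the libraries. Libraries were made with a messenger RNA kit, and the part of ribosomal RNA reads in the Lars2 value was not tested. Summed over the mitochondrial set, Lars2 took the largest share of reads, so sums over that set follow it, and medians were used above.

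**Figure D5:**
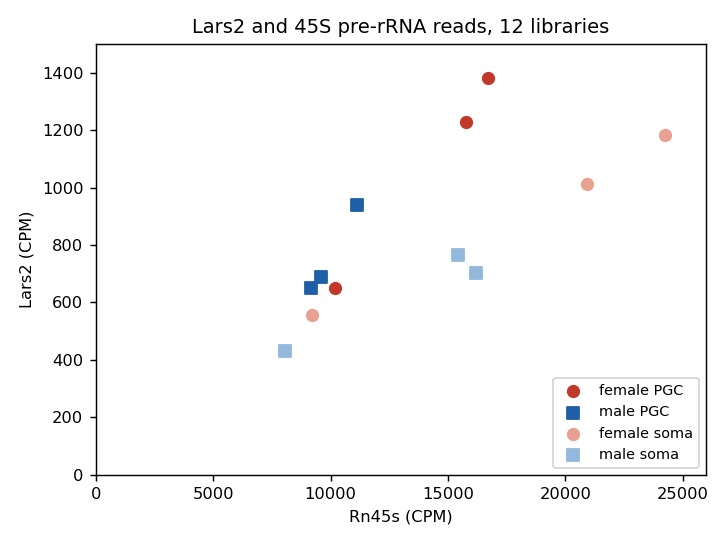
Lars2 against Rn45s in CPM, 1 point per library, by group. Within each group the library with the lowest Rn45s has the lowest Lars2, from 430 CPM in a male soma library to 1383 CPM in a female PGC library.

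Relatives of the synthetases outside the set were read for comparison, from lists chosen with earlier results of these data known. In PGCs against soma 41.4% of all genes were higher and 45.3% lower, beside which the counts of these lists stand. Of 6 measured synthetase-like genes 3 were higher in PGCs, 1 was lower and 2 were not called, a list too short to compare with those shares. Tarsl2, a threonyl-tRNA synthetase-like gene, had 82.8, 80.9 and 64.4 CPM in female PGCs, 4.54, 7.42 and 6.83 CPM in male PGCs, 19.6, 28.8 and 15.3 CPM in female soma and 21.2, 22.02 and 24.6 CPM in male soma. Female PGCs were above the soma and male PGCs below it. The female over male log2 fold change in PGCs was 2.45, and the female minus male difference of the PGC over soma change was 2.57. Its paralog Tars was lower in female than in male PGCs (-0.54), and reads that fit both genes could be shared between them.

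Other genes of charging and translation mostly rose in PGCs. Of 13 genes for mitochondrial tRNA charging and maturation 9 rose and 4 fell. The risers included Gatb (1.11) and Qrsl1 (1.23), subunits of the amidotransferase that makes mitochondrial glutaminyl-tRNA, while the third subunit, Gatc, fell (-0.76). Of 12 mitochondrial translation factors 8 rose and 1 fell, and of 77 mitochondrial ribosomal protein genes 63 rose and 5 fell (median 0.59). The 4 measured genes of elongation factor eEF1, which receives charged tRNAs in the cytosol, all rose, by 0.23 to 0.59. All 4 were also lower in female than in male PGCs, by -0.25 to -0.57, as were 38 of the 77 mitochondrial ribosomal protein genes, with 7 higher (32.5% and 32.8% of all genes). With voom 33 were lower and 14 higher (27.2% and 39.1% of all genes).

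Genes of the amino acid response were called in both directions. Of 18 measured genes 9 rose in PGCs and 8 fell, with a median of 0.01, near the 41.4% and 45.3% of all genes. Atf4 had 41.7, 38.1 and 50.3 CPM in female PGCs and 94.3, 100.4 and 73.6 CPM in male PGCs, against 171, 189.8 and 152 CPM in female soma and 166, 163 and 163 CPM in male soma. It was lower in PGCs (log2 fold change -1.07) and lower in female than in male PGCs (-0.90), without overlap in either comparison. Ddit3, whose gene overlaps Mars by 68 bases on the opposite strand, fell as well (-1.14). Asns (asparagine synthetase, 1.16), Trib3 (1.52) and Sesn2 (1.32) rose, and Phgdh, the first enzyme of serine synthesis, fell (-1.95).

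Amino acid transporters went mostly the other way from the synthetases. Of 14 measured transporters 11 were lower in PGCs and 2 were higher, with a median log2 fold change of -1.25 (45.3% and 41.4% of all genes). Slc7a5 (0.30) and Slc7a6 (0.75) were the 2 that rose. Slc7a8 (-3.46) and Slc38a2 (-1.84) were among those that fell. Of 7 genes for eIF2alpha kinases, their activator Gcn1l1 and phosphatase subunits, which act upstream of Atf4 translation, 3 rose and 3 fell, near the 41.4% and 45.3% of all genes. With voom 2 rose and 4 fell, against 39.5% and 47.2% of all genes. Eif2ak4, the kinase that senses uncharged tRNA, was lower in PGCs (-0.61) and higher in female than in male PGCs (0.56).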

How the data were processed

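RNA sequencing of 12 libraries (4 groups of 3) was analysed. Sample titles gave the groups and replicate numbers, and no library was left out. Per the labels' protocols, spike-in RNA was added per number of sorted cells and a directional messenger RNA kit was used. Per the submitters' processing notes, the tools included TopHat2 2.0.9 and HTSeq 0.6.1p1 with genome mm10, besides limma 3.28.14, DESeq2 1.12.3, edgeR 3.14.0 and Trim Galore 0.4.0, with no role named. Which annotation and strand setting the counting had is not stated in these sources, so overlapping genes may share reads.

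The authors deposited 2 tables of log2 values for 12845 genes, one read here as scaled to cell number and one to read depth. Whole reads were recovered from the cell number table (100% of values whole within 0.001 reads after an offset of 0.5). They gave depth, CPM and reads per kilobase of the transcript with the longest coding sequence (GENCODE vM21). How the read depth table was transformed is not stated there. Each gene had at least 5.07 CPM in 3 libraries. No replicate pair was the same within counting noise (chi-square over its degrees of freedom 5.43 to 30.4). No batch is labelled.

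Tests on both tables used limma 3.58.1 under R 4.3.3 (4 group means, intensity trend, Benjamini-Hochberg adjustment over all genes, threshold 0.05), in a pipeline tested on simulated data. Comparisons that share a group of libraries are not independent. Alternatives were median centring, leaving out the lowest 25% of genes, voom on the recovered reads, an offset of 5 reads, a replicate block and leaving out each library. Values in every library are given for the 3 largest and 3 smallest changes of each set, the 4 largest differences between sexes in PGCs and in the change, the 2 largest in soma, and the 2 highest and lowest levels per length. Cars2, Eprs and genes outside the set were named after their values were seen. Members and lists were chosen with earlier results of these data known. Tables were handled with Python 3.11.15 and pandas 2.3.3, and figures were drawn with matplotlib 3.10.9. Some genes were left out of the comparison lists and are not reported here.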

Additional observations from a re-analysis of the deposited data

Results flagged for a closer look

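On the read depth scale, the change of 22 of 36 synthetases between PGCs and soma differed between females and males, by the interaction of cell type and sex in limma (adjusted p under 0.05 over 12845 genes). Of these differences 20 were negative and 2 positive, against 28.9% and 27.9% of all genes. Per cell, 9 were positive and 0 negative (42.8% and 5.16% of all genes). The values below are female minus male differences of the log2 fold change on the read depth scale. Among the cytosolic members the difference was -1.17 for Vars, -0.74 for Hars, -0.61 for Lars, -0.59 for Rars, -0.54 for Gars, -0.52 for Mars, -0.51 for Farsa and -0.51 for Yars. It was -0.41 for Tars, -0.36 for Sars, -0.33 for Iars, -0.31 for Kars and -0.23 for Eprs. Among the mitochondrial members it was -0.78 for Aars2, -0.76 for Ears2, -0.75 for Mars2, -0.67 for Fars2, -0.47 for Yars2, -0.41 for Hars2 and -0.40 for Pars2. Cars2 and Iars2 had positive differences of 0.39 each. Hars and Aars2 had opposite directions in the 2 sexes, each past the threshold. The groups hold 3 libraries, so single libraries were not tested as outliers.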

How the results depend on the processing

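On the read depth scale, median centring left 1 member lower in PGCs (mean of both sexes), 1 in males and 2 in females, and voom gave 4 members higher in female PGCs. Per cell, centring gave 1 lower (mean), 1 lower (males), 2 lower (females), 24 lower in female PGCs, 1 higher and 3 lower in female soma, and a difference of the changes that was positive in 1 and negative in 22. Without 1 library at a time, the read depth counts of higher and lower members ran 27 to 29 and 3 to 3 (mean), 28 to 28 and 2 to 2 (males), 22 to 26 and 4 to 5 (females), 1 to 1 and 20 to 23 (PGCs by sex), 0 to 2 and 3 to 4 (soma by sex), and 1 to 2 and 17 to 20 (difference of the changes). The positive differences numbered 1 without male PGC replicate 3, male soma replicate 3, female PGC replicate 2 or female soma replicate 3. Per cell they ran 36 to 36 and 0 to 0 (mean and females), 34 to 36 and 0 to 0 (males), 0 to 1 and 4 to 16 (PGCs by sex), 0 to 0 and 17 to 34 (soma by sex), and 4 to 13 and 0 to 1 (difference of the changes). The value of 16 was without male soma replicate 3, and the member higher in female PGCs was lost without any one PGC library. The positive differences numbered 4 without female PGC replicate 1 or female soma replicate 1 and 5 without male PGC replicate 3, and the negative one arose without male soma replicate 3. On the read depth scale, 30 of 30 calls (mean) and 30 of 30 (males) remained in every such fit, 26 of 31 in females (not Aars, Pars2, Qars, Sars and Wars), 21 of 24 by sex in PGCs (not Farsb, Qars and Sars), 3 of 4 in soma (not Vars) and 18 of 22 of the differences (not Cars2, Eprs, Kars and Pars2). Small changes turned sign: Nars to 0.22 with centring and between -0.0526 and 0.0418 without single libraries, Hars to -0.0415 with voom and between -0.0579 and 0.0646 without single libraries, and Pars2 to 0.15 with centring. The cause was not tested. Deviations from group means correlated at -0.361 to 0.071 between same-numbered libraries and at -0.177 to 0.263 between libraries of other numbers. With 3 libraries per group this cannot show whether same-numbered samples shared gonads. The replicate block gave 28 higher and 3 lower for the mean and moved no count by over 1.5 times. Depth limits Mars2 most, at 162 reads per library on average.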
